A study of Sus scrofa with 4 samples.

Results

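Transcripts of 10 Krüppel-like factor (KLF) genes, KLF2, KLF3, KLF4, KLF5, KLF6, KLF7, KLF9, KLF10, KLF11 and KLF13, were examined in 4 RNA sequencing libraries of porcine cells. The members were chosen by gene name, with earlier results of these data known. All 10 were found by their Ensembl identifier among the 25880 genes of the count table. The table also held 7 other KLF genes, which are described further below. All 10 passed the filter on low counts that left 15739 genes for testing. The study reprogrammed ear skin fibroblasts of 1 post-neonatal pig, named N01F, with episomal vectors. The iPSC libraries (n = 2 clones, passage 3) came from colonies isolated after culture in an embryonic stem cell medium to which activin A, TGF-β1 and IWP2, an inhibitor of WNT, had been added. The iNSLC library (induced neural stem cell-like cells, n = 1, passage 1) came from the dome-shaped primary colonies grown in NSM, a medium used before for naive-state cells. The untransfected fibroblasts (n = 1, passage 1) were the starting cells. The vector set carried KLF4 and KLF2 among its reprogramming genes, and loss of the vectors from iPSCs was reported for passages beyond those sequenced here. Reads of vector KLF4 or KLF2 could therefore have been counted at the pig genes in iPSCs and iNSLCs, and their share was not tested. Between iPSCs and the other cells, medium, passage and cell type changed together and cannot be told apart, and against fibroblasts transfection changed too. Between iNSLCs and fibroblasts, both labelled passage 1, medium and transfection changed with cell type. The shared label does not make time in culture equal, because the iNSLCs came from fibroblasts that were first transfected and grown into colonies. For marmoset cells the paper describes induction on a layer of mouse feeder cells, and its pig section does not mention feeders. If they were used, feeders too would set iNSLCs apart from fibroblasts, and any share of mouse reads was not tested.

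KLF proteins bind GC-rich and CACCC elements of promoters and enhancers through 3 zinc fingers at their C-terminal end, and their N-terminal parts decide which cofactors they bring along. KLF2, KLF4, KLF5, KLF6 and KLF7 act largely as activators. KLF3 recruits the corepressor CtBP, and KLF9, KLF10, KLF11 and KLF13 recruit SIN3A and its histone deacetylases. In mouse embryonic stem cells KLF2, KLF4 and KLF5 support naive self-renewal with partly overlapping roles, and KLF4 is one of the original reprogramming factors. In fibroblasts and other tissue cells KLF4 is known from growth arrest and stress, KLF6 from the response to injury, KLF9 from that to glucocorticoids, and KLF10 and KLF11 from that to TGF-β.

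Total counts were 21640374 and 41296933 in iPSC clones 1 and 2, 25784594 in iNSLCs and 62421521 in fibroblasts. Levels are given as CPM, that is counts divided by library size and scaled by TMM, a correction for library composition, and, where genes are set against each other, per kilobase of gene model (RPKM). All cultures came from 1 animal, so p-values do not cover variation between animals. They rest on counting error and on how far the 2 iPSC clones lay apart. For each gene that spread was moderated toward the spread over all genes (median prior degrees of freedom 3.21, against 1 residual). The test took the single iNSLC and fibroblast libraries to be as variable as the clones. The marker lists were checked against the labels. The 8 fibroblast markers summed to 884 and 902 CPM in the iPSC clones, 52671 CPM in iNSLCs and 137404 CPM in fibroblasts. The 8 pluripotency markers summed to 1156 and 1204 CPM in the clones, 451 CPM in iNSLCs and 1.23 CPM in fibroblasts. The 7 neural stem cell markers summed to 785 and 899 CPM in the clones, 829 CPM in iNSLCs and 94.3 CPM in fibroblasts. Of these 7 genes, 5 were at least 4-fold higher in iNSLCs than in fibroblasts, where 15.4% of all genes were. PAX6 went the other way, at 14.6 CPM in iNSLCs and 21.5 CPM in fibroblasts. SOX2 is counted in both the pluripotency and the neural stem cell sum. The vectors also carried OCT4 (POU5F1), SOX2, LIN28 and NANOG. In iNSLCs, LIN28A was at 202 CPM, SOX2 at 134 CPM, POU5F1 at 40.5 CPM and NANOG at 0.209 CPM. Vector reads could be part of these levels in iNSLCs and iPSCs, and their share was not tested. Between iPSCs and iNSLCs, 4 of the 7 neural stem cell markers were called lower in iPSCs and 1, SOX2, higher, where 14.2% and 13.1% of all tested genes were. Keratinocyte, endothelial and blood markers summed to at most 56.6, 38.4 and 19.8 CPM in any library. KRT5, KRT14 and CLDN5 were not found by name and are not in these sums. The keratinocyte sum was 5.11 and 0.743 CPM in the clones, 56.6 CPM in iNSLCs and 3.20 CPM in fibroblasts. KRT1 alone was at 41.0 CPM in iNSLCs, with 2 counts in fibroblasts and 0 in both clones. In whole cultures, fewer cells of a type and less RNA per cell cannot be told apart. The share of the KLF levels of iNSLCs that came from cells with collagen or keratin expression was not tested.

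The activators differed in where they were highest, with KLF5 highest in iPSCs, KLF2 in iNSLCs, and KLF4, KLF6 and KLF7 in fibroblasts. KLF4 (ENSSSCG00000005437, Sscrofa11.1 chromosome 1, 248604822 to 248609718, 5 exonic blocks) was at 27.1 and 13.7 CPM in iPSC clones 1 and 2, 54.4 CPM in iNSLCs and 310.3 CPM in fibroblasts. Both clones lay below the other libraries, and the ratio between the clones was wider for KLF4 than for any other member. The iPSC mean of 20.4 ± 9.49 CPM (SD, n = 2) was 15.2-fold lower than the fibroblast level, the largest difference among the members (log2 ratio -3.95 ± 0.40 SE, edgeR adjusted p = 0.00263). It was 2.67-fold lower than the iNSLC level, which did not pass the test (log2 ratio -1.44 ± 0.40, edgeR adjusted p = 0.0658). Of the alternatives, only scaling by total counts passed (edgeR adjusted p = 0.0468). Without the low-count filter the edgeR adjusted p was 0.126, and the DESeq2 adjusted p was 0.220.

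KLF5 (ENSSSCG00000035101, chromosome 11, 45369575 to 45388299), known from proliferating epithelia and from mouse embryonic stem cells, had the opposite order. It was at 92.5 and 64.3 CPM in the iPSC clones, 19.0 CPM in iNSLCs and 13.6 CPM in fibroblasts. Both clones were above both other libraries. The iPSC mean of 78.4 ± 20.0 CPM was 5.77-fold higher than in fibroblasts (log2 ratio 2.53 ± 0.29, edgeR adjusted p = 0.00360) and 4.13-fold higher than in iNSLCs (log2 ratio 2.04 ± 0.29, edgeR adjusted p = 0.0161). It was the single member that rose against fibroblasts.

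KLF2 (ENSSSCG00000038911, chromosome 2, 61270714 to 61273138), a factor of quiescent endothelium and lymphocytes and of naive mouse stem cells, was weakly expressed throughout. It had 78 and 150 counts in the clones (3.29 and 3.28 CPM), 239 in iNSLCs (8.34 CPM) and 167 in fibroblasts (3.61 CPM). The iNSLC library stood above the other libraries, which lay close together. The iPSC mean was 2.54-fold lower than in iNSLCs (log2 ratio -1.34 ± 0.27, edgeR adjusted p = 0.0321), a call that DESeq2 did not make (adjusted p = 0.130). Against fibroblasts no difference passed (log2 ratio -0.13 ± 0.28, edgeR adjusted p = 0.703).

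KLF6 (ENSSSCG00000035212, chromosome 10, 66488652 to 66494904), which is induced by injury, was lowest in iNSLCs and highest in fibroblasts. It was at 24.9 and 19.1 CPM in the iPSC clones, 6.84 CPM in iNSLCs and 57.8 CPM in fibroblasts. The iPSC mean of 22.0 ± 4.09 CPM was therefore 2.63-fold lower than in fibroblasts (edgeR adjusted p = 0.00652) and 3.21-fold higher than in iNSLCs (edgeR adjusted p = 0.0182). Both clones lay between the 2 single libraries. KLF7 (ENSSSCG00000029998, chromosome 15, 110286490 to 110379145), which acts in neurite outgrowth in mice, was at 57.9 and 42.1 CPM in the clones, 39.7 CPM in iNSLCs and 122 CPM in fibroblasts. It fell 2.43-fold in iPSCs against fibroblasts (edgeR adjusted p = 0.00949), and against iNSLCs the difference did not pass (log2 ratio 0.33 ± 0.23, edgeR adjusted p = 0.330).

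**Figure D1:**
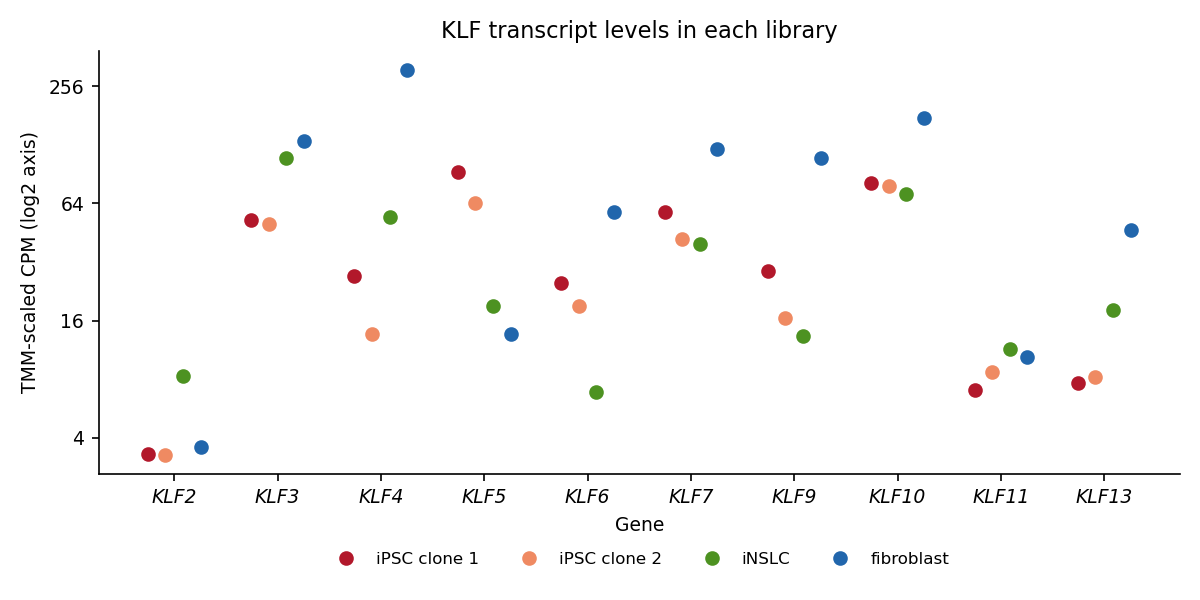
Levels of the 10 KLF genes in iPSC clones 1 and 2, iNSLCs and fibroblasts, in TMM-scaled CPM on a log2 axis; each point is 1 library. KLF4 was at 27.1 and 13.7 CPM in the clones and 310.3 CPM in fibroblasts, whereas KLF5 was at 92.5 and 64.3 CPM in the clones and 13.6 CPM in fibroblasts.

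Of the repressor members, KLF3, KLF9, KLF10 and KLF13 were called lower in iPSCs than in fibroblasts, as were the activators KLF4, KLF6 and KLF7. KLF3 (ENSSSCG00000036488, chromosome 8, 30024830 to 30060982), the CtBP-binding member, was at 52.4 and 50.002 CPM in the iPSC clones, 109 CPM in iNSLCs and 133 CPM in fibroblasts. The clones were nearly equal and lay below both other libraries. The iPSC mean of 51.2 ± 1.69 CPM was 2.60-fold lower than in fibroblasts (log2 ratio -1.38 ± 0.11, edgeR adjusted p = 0.00143) and 2.13-fold lower than in iNSLCs (log2 ratio -1.09 ± 0.11, edgeR adjusted p = 0.00860).

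KLF13 (ENSSSCG00000026006, chromosome 1, 143498691 to 143540563), a SIN3A-binding member known from T cells, had the same order of cell types over a wider range. It was at 7.60 and 8.17 CPM in the iPSC clones, 18.2 CPM in iNSLCs and 46.6 CPM in fibroblasts, so that the clones lay below both other libraries. The iPSC mean of 7.89 ± 0.406 CPM was 5.90-fold lower than in fibroblasts (log2 ratio -2.56 ± 0.16, edgeR adjusted p = 0.000911), the smallest adjusted p among the members, and 2.31-fold lower than in iNSLCs (edgeR adjusted p = 0.0165). KLF9 (ENSSSCG00000021646, chromosome 1, 223720413 to 223748621), the glucocorticoid-induced member, was at 28.8 and 16.5 CPM in the clones, 13.4 CPM in iNSLCs and 109 CPM in fibroblasts. The fibroblast library stood alone here. KLF9 fell 4.81-fold in iPSCs against fibroblasts (log2 ratio -2.28 ± 0.34, edgeR adjusted p = 0.00683), and iPSCs and iNSLCs could not be separated (log2 ratio 0.74 ± 0.39, edgeR adjusted p = 0.213).

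The TGF-β-inducible pair did not share a pattern. KLF10 (ENSSSCG00000027480, chromosome 4, 34429923 to 34436006) was at 81.1 and 78.8 CPM in the iPSC clones, 71.7 CPM in iNSLCs and 175 CPM in fibroblasts. It fell 2.19-fold in iPSCs against fibroblasts (edgeR adjusted p = 0.00206) and lay within a log2 ratio of 0.16 ± 0.11 of iNSLCs (edgeR adjusted p = 0.333). KLF11 (ENSSSCG00000038643, chromosome 3, 126416529 to 126429910) had the narrowest range of the members, with 7.01 and 8.72 CPM in the clones, 11.5 CPM in iNSLCs and 10.4 CPM in fibroblasts. Its highest level was 1.64-fold its lowest, and neither test passed (log2 ratio -0.38 ± 0.24 against fibroblasts, edgeR adjusted p = 0.236, and -0.53 ± 0.25 against iNSLCs, edgeR adjusted p = 0.179).

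Counted over the 10 members, iPSCs differed from fibroblasts in 8, where 57.8% of all tested genes were called. KLF5 rose, where 29.6% of all tested genes were called higher, and 7 members fell (KLF3, KLF4, KLF6, KLF7, KLF9, KLF10 and KLF13), where 28.2% of all tested genes were called lower. The median log2 ratio of the members was -1.33, against 0.11 over all tested genes. It was 0.31 over the 6 other KLF genes tested, of which KLF1 and KLF17 had 0 counts in fibroblasts. Scaling by total counts moved the median of all genes to 0.68 and the calls over all genes to 7264 higher and 2754 lower, instead of 4651 and 4440. The direction of the 8 called members did not change with it, whereas the uncalled KLF2 and KLF11 took the other sign.

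Against iNSLCs, 5 of 10 members differed, where 27.3% of all tested genes were called, with KLF5 and KLF6 higher in iPSCs (13.1% of all tested genes were called higher) and KLF2, KLF3 and KLF13 lower (14.2% of all tested genes were called lower). The members had a median log2 ratio of -0.19, against -0.00103 over all tested genes. With DESeq2 4 members were called, and with total counts 6, KLF4 being added. Both comparisons use the same iPSC libraries, and their values are therefore not independent.

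**Figure D2:**
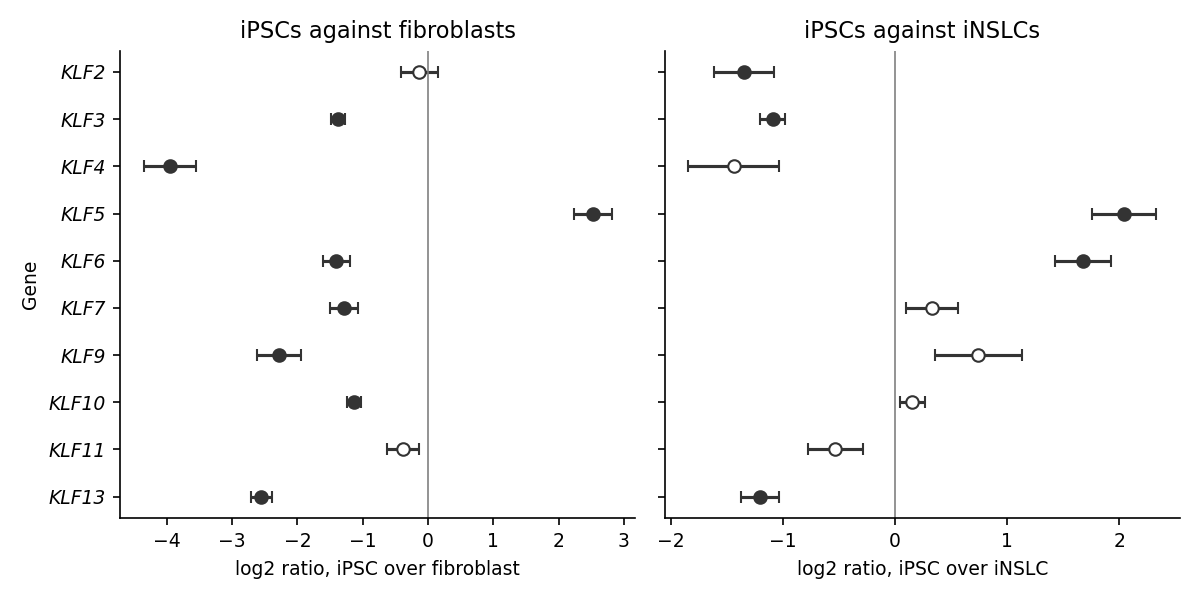
Log2 ratios of the 10 KLF genes in iPSCs against fibroblasts (left) and against iNSLCs (right), with bars of 1 SE from the edgeR fit; filled points passed the adjusted threshold. KLF4 had the lowest ratio against fibroblasts (-3.95) and KLF5 the highest in both panels (2.53 and 2.04), and KLF6 lay below 0 on the left and above 0 on the right.

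Between iNSLCs and fibroblasts there was 1 library on each side, so ratios are given with 95% exact conditional binomial intervals that cover counting error only. KLF6, KLF9 and KLF4 were more than 4-fold lower in iNSLCs, by 8.45-fold (7.31 to 9.82), 8.15-fold (7.34 to 9.06) and 5.70-fold (5.41 to 6.01), where 8.48% of all genes were at least 4-fold lower. None of the members was at least 4-fold higher, where 15.4% of all genes were. Scaling by total counts left 2 members past 4-fold, with KLF4 at 3.81-fold lower, and gave 682 genes lower and 2763 higher by that much over the table, instead of 1143 and 2078. KLF7, KLF13 and KLF10 were 3.06-fold (2.87 to 3.27), 2.56-fold (2.33 to 2.82) and 2.44-fold (2.33 to 2.56) lower in iNSLCs, which made 6 members at least 2-fold lower, where 21.0% of all genes were. KLF3 was 0.817 times the fibroblast level (0.782 to 0.853), but 1.22 times with total counts, and KLF5 1.398 times (1.24 to 1.57). KLF2 was 2.31-fold higher in iNSLCs (1.89 to 2.84), the single member past 2-fold in that direction, where 24.7% of all genes were, and for KLF11 the interval included 1 (ratio 1.11, 0.960 to 1.28). The members' median log2 ratio was -1.32, against -0.04 over all genes measured. With TMM scaling, the fibroblast library was the highest of the 4 for 7 members, KLF3 among them, and the iNSLC library was the lowest for KLF6, KLF7, KLF9 and KLF10.

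The iPSC clones, the only replicates, differed most in KLF4 and KLF9. No member was 2-fold apart, where 5.02% of all genes were. KLF4 was 1.98-fold lower in clone 2 than in clone 1 (1.77 to 2.22) and KLF9 1.75-fold lower (1.58 to 1.95), and these were the 2 members past 1.5-fold, where 6.73% of all genes were lower in clone 2 by that much. KLF5, KLF7 and KLF6 were 0.695, 0.727 and 0.767 times as high in clone 2, each with an interval below 1. KLF11 was 1.24-fold higher in clone 2, with an interval above 1. The intervals of KLF2, KLF3, KLF10 and KLF13 included 1. In all, 8 of 10 members had a ratio below 1, with a median log2 ratio of -0.22, where 5731 of 13214 genes lay below 1 and the median of all genes was 0.04. What separated the clones was not tested.

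**Figure D3:**
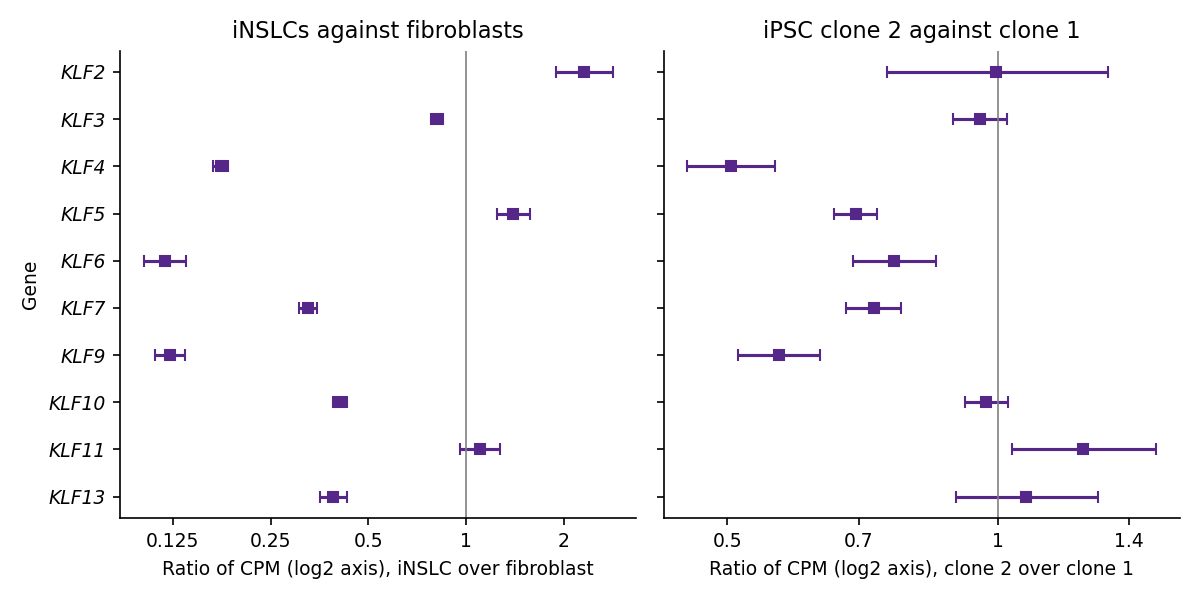
Ratios of CPM for the 10 KLF genes in iNSLCs over fibroblasts (left) and iPSC clone 2 over clone 1 (right), on log2 axes with 95% counting intervals; 1 library stands on each side. KLF6, KLF9 and KLF4 were 8.45-, 8.15- and 5.70-fold lower in iNSLCs, and KLF4 was 1.98-fold lower in clone 2.

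Per gene length, fibroblasts held the most KLF transcript. The 17 KLF genes of the table summed to 146.5 and 119.4 RPKM in the iPSC clones, 121.8 RPKM in iNSLCs and 369.5 RPKM in fibroblasts, and the 10 members made up between 82.0% and 89.2% of these sums. The leading member differed between the cell types. KLF6 led in the clones with 20.0% and 18.8% of the family RPKM, KLF3 in iNSLCs with 16.7% and KLF4 in fibroblasts with 27.1%. The KLF6 share rests on a gene model of 849 bases, a multiple of 3 that ends before the RefSeq gene does (66494904 against 66497830). The model may thus cover coding length only, which was not checked against a coding annotation, while the other members' models are longer. Reads outside that model were not counted, so CPM without length ranks KLF6 low for that reason also. By CPM, KLF5 led in clone 1 and KLF10 in clone 2.

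The balance between the naive-associated members turned round. KLF5 was at 3.09 and 4.25 times the RPKM of KLF4 in the iPSC clones, at 0.315 times in iNSLCs and at 0.0396 times in fibroblasts. KLF4 took 5.96% and 3.69% of the family RPKM in the clones, 14.4% in iNSLCs and 27.1% in fibroblasts. KLF5 took 18.4% and 15.7% in the clones, 4.54% in iNSLCs and 1.07% in fibroblasts. Thus the level of KLF5 relative to KLF4 was above 1 in both clones and below 1 in both other libraries. KLF2 took at most 3.93% of the family RPKM, in iNSLCs.

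**Figure D4:**
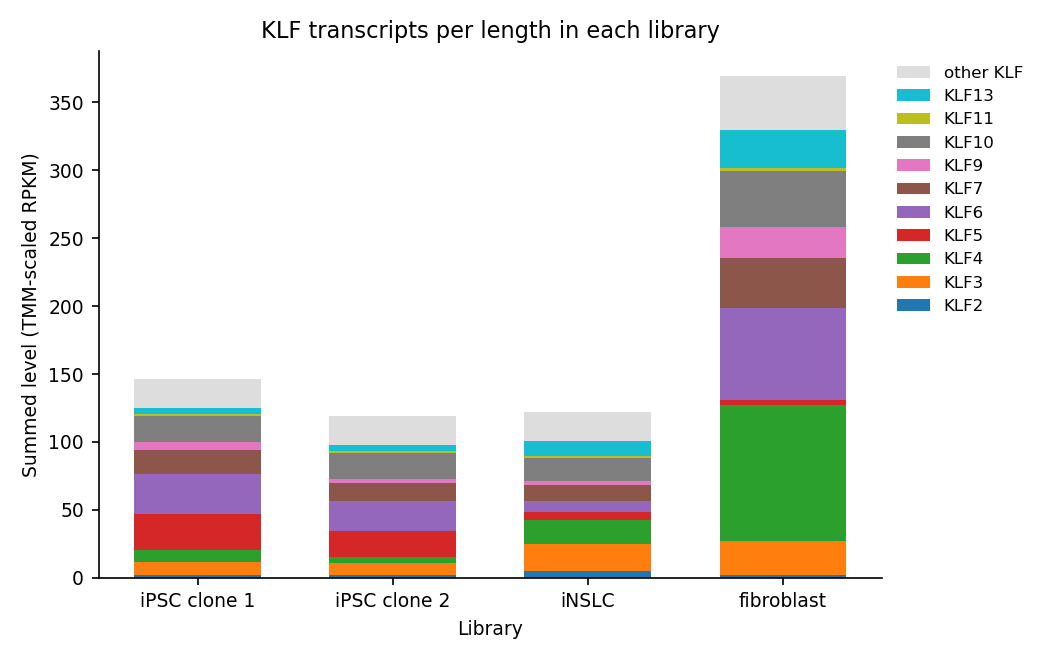
Stacked levels of the KLF genes in each library, in TMM-scaled RPKM; the grey part is the sum of the 7 other KLF genes. The fibroblast bar reached 369.5 RPKM, of which KLF4 made up 27.1%, and KLF5 made up 18.4% and 15.7% of the bars of the iPSC clones.

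Among the other KLF genes, KLF8 and KLF12 are CtBP-binding repressors like KLF3, KLF14 and KLF16 recruit SIN3A, KLF15 acts in metabolism, KLF1 is the erythroid member and KLF17 is known from the human epiblast. Of the 6 tested, 2 rose and 3 fell in iPSCs against fibroblasts, and 2 rose and 2 fell against iNSLCs, where 57.8% and 27.3% of all tested genes were called in either direction. KLF12 was at 10.6 and 9.90 CPM in the clones, 15.006 CPM in iNSLCs and 49.1 CPM in fibroblasts (4.79-fold lower in iPSCs than in fibroblasts, edgeR adjusted p = 0.00108). KLF15 fell 10.6-fold in iPSCs against fibroblasts (edgeR adjusted p = 0.00206) and 3.42-fold against iNSLCs (edgeR adjusted p = 0.0391). KLF8 was highest in iNSLCs, with 5.53 and 6.51 CPM in the clones, 18.0 CPM in iNSLCs and 2.79 CPM in fibroblasts. It was called higher in iPSCs than in fibroblasts (log2 ratio 1.12 ± 0.27, edgeR adjusted p = 0.0272) and lower than in iNSLCs (-1.56 ± 0.23, edgeR adjusted p = 0.0180). The 3 CtBP-binding genes were thus not ordered alike, as KLF8 was 6.45-fold higher in iNSLCs than in fibroblasts (5.31 to 7.89) and KLF12 was 3.28-fold lower (2.95 to 3.64), while the direction of KLF3 depended on the scaling. KLF1 had 19 and 44 counts in the iPSC clones and 0 in the other libraries, which allows up to 0.105 CPM in iNSLCs and 0.0648 CPM in fibroblasts. It was at least 13.6-fold higher in iPSCs than in fibroblasts (edgeR adjusted p = 0.0116) and at least 8.42-fold higher than in iNSLCs (edgeR adjusted p = 0.0379), over a floor of 3 counts per library. KLF17 had 4 and 2 counts in the clones, 22 in iNSLCs and 0 in fibroblasts, and passed neither test. KLF14 had at most 4 counts and was not tested.

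The SP genes share the zinc finger structure of the KLF genes and bind similar GC boxes. Of 9 tested, 4 rose (SP4, SP5, SP6 and SP8) and 1 fell (SP7) in iPSCs against fibroblasts, and 4 fell (SP5, SP6, SP7 and SP9) against iNSLCs, where the other 5 did not pass. The 5 of 9 called against fibroblasts stand beside 57.8% of all tested genes, and the 4 of 9 against iNSLCs beside 27.3%. SP1, SP2 and SP3, the widely expressed members, passed neither test. SP8, a limb and brain patterning factor, was at 11.5 and 11.0 CPM in the clones, 14.9 CPM in iNSLCs and 0.259 CPM in fibroblasts. SP5, a WNT target, was at 7.30 and 8.15 CPM in the clones, 58.8 CPM in iNSLCs and 1.47 CPM in fibroblasts. SP9 had 4 and 2 counts in the clones, 180 in iNSLCs and 2 in fibroblasts (log2 ratio of iPSCs over iNSLCs -6.12 ± 0.58, edgeR adjusted p = 0.00647). The median log2 ratio of SP genes in iPSCs against fibroblasts was 0.95, where that of the KLF members was -1.33, and the difference between these lists was not tested.

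Because several KLF genes, KLF6 and KLF10 among them, are quickly induced when cells are stimulated, immediate early genes and fast TGF-β targets were set beside them. Of 18 immediate early genes tested, 6 rose and 9 fell in iPSCs against fibroblasts (median log2 ratio -0.72), and 11 rose and 1 fell against iNSLCs (median log2 ratio 1.48). Over all tested genes, 29.6% were called higher and 28.2% lower against fibroblasts, and 13.1% higher and 14.2% lower against iNSLCs. DUSP1, a MAP kinase phosphatase, was at 23.2 and 22.6 CPM in the iPSC clones, 25.8 CPM in iNSLCs and 177 CPM in fibroblasts (log2 ratio against fibroblasts -2.95 ± 0.11, edgeR adjusted p = 0.000461). FOSB and EGR2 went the other way, with log2 ratios of 2.72 ± 0.39 and 2.87 ± 0.50 in iPSCs over fibroblasts. Against iNSLCs, NR4A1 (log2 ratio 2.99 ± 0.18, edgeR adjusted p = 0.00399), FOSL1 (2.87 ± 0.23, edgeR adjusted p = 0.00601) and MYC (2.31 ± 0.19, edgeR adjusted p = 0.00599) rose in iPSCs. EGR3 was at 14.0 and 5.27 CPM in the clones and had 0 counts in iNSLCs, which made it at least 92.1-fold higher in iPSCs (edgeR adjusted p = 0.0354), or at least 50.3-fold with clone 2 alone. The gene that fell was BTG2, an antiproliferative gene (log2 ratio -0.97, edgeR adjusted p = 0.0322). JUNB was listed at 0 counts in all 4 libraries and was not tested.

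Of 7 fast TGF-β targets, 1 rose and 2 fell in iPSCs against fibroblasts, and 6 rose against iNSLCs (median log2 ratio 1.77, beside the same shares over all genes), where the remaining gene, SMAD6, had a log2 ratio of 1.77 and did not pass (edgeR adjusted p = 0.0604). BHLHE40, a transcriptional repressor, was at 53.8 and 31.2 CPM in the clones, 14.1 CPM in iNSLCs and 278 CPM in fibroblasts (edgeR adjusted p = 0.00408 against fibroblasts and 0.0498 against iNSLCs). PMEPA1 and SMAD7, feedback inhibitors of the pathway, were higher in iPSCs than in iNSLCs by log2 ratios of 2.45 ± 0.29 and 2.42 ± 0.36 (edgeR adjusted p = 0.0119 and 0.0186). KLF10 and KLF11 did not pass the same test against iNSLCs. The iPSC medium contained activin A and TGF-β1, which cannot be told apart from cell type.

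**Figure D5:**
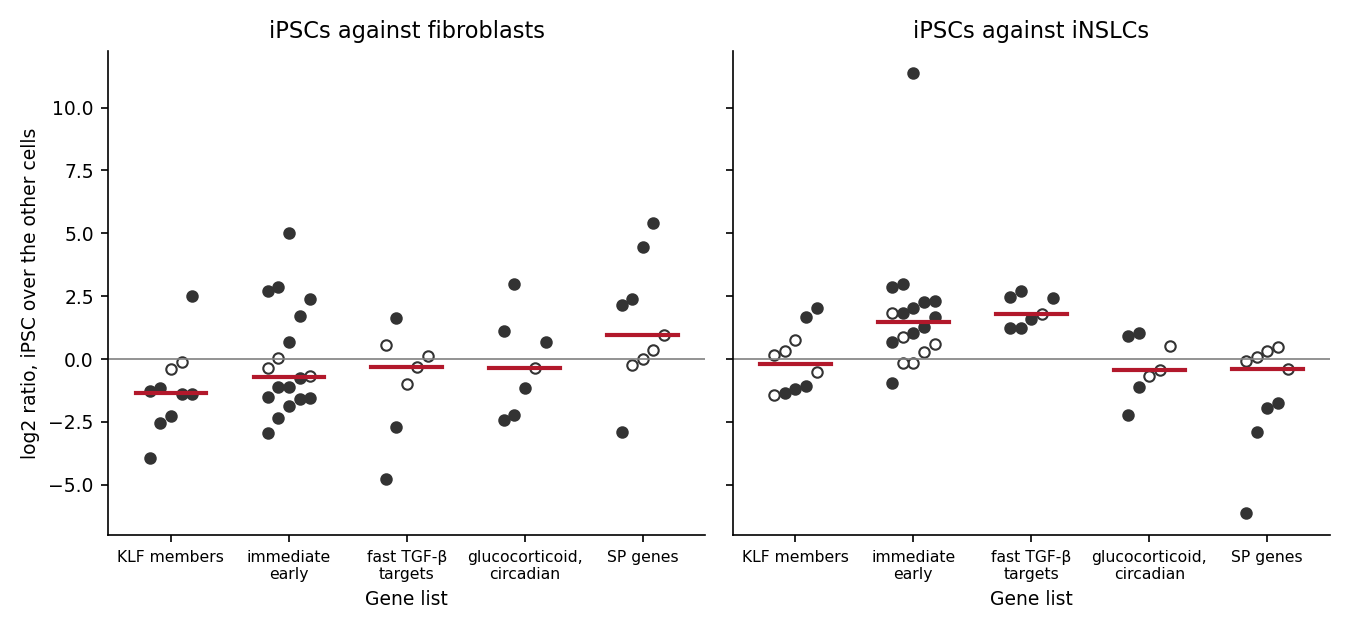
Log2 ratios of the KLF members and of 4 other lists in iPSCs against fibroblasts (left) and against iNSLCs (right); points stand for genes, those called by edgeR are filled, and red lines mark the medians. The medians of KLF members were -1.33 and -0.19, those of immediate early genes -0.72 and 1.48, and those of fast TGF-β targets -0.30 and 1.77; the point above 10 is EGR3, whose ratio is fitted against 0 counts and is no measure of size.

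For the 5 members whose levels spanned at least 4-fold, the genes with the most similar profile over the 4 libraries were sought among 10215 genes with a symbol and at least 10 CPM in some library, by the distance between centred log2(CPM + 0.5) profiles. The nearest to KLF4 was LTBP3, a binding protein of latent TGF-β, at a distance of 0.0619, with 5.45 and 2.69 CPM in the clones, 11.7 CPM in iNSLCs and 65.8 CPM in fibroblasts. SLC8A3 and PHYH followed at 0.252 and 0.259. The nearest to KLF6 were QPCT, CLCF1 and DENND3 at 0.113, 0.146 and 0.157, and among the nearest to KLF13 were FCGRT and FKBP7 at 0.111 and 0.127. KLF9 had OSTF1, LIF and ATP10A at 0.202, 0.275 and 0.301. The nearest to KLF5 were ADGRG2, STX3 and MTUS2, at 0.299, 0.300 and 0.301. The profiles rest on 4 libraries of 3 cell types and share the scaling, so these distances are a description.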

How the data were processed

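The submitters' processing notes name Trim Galore 0.4.0, STAR 2.5.3a, featureCounts 1.5.2 and the Sscrofa11.1 assembly. The authors deposited whole-number read counts per gene that were not normalized. The tables of single libraries held the same values as the table of the series. No source used here says whether counting used strand, so reads of antisense partners cannot be told apart. Of the members, KLF3 alone overlapped another gene model, which had at most 4 counts. Symbols were assigned by Ensembl identifier (14857 genes) or by an overlap of 80% with a RefSeq protein-coding gene (1879 genes). Of 122 listed genes, 118 were found.

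Groups came from the labels. Counts of all 4 libraries were fitted in 3 groups with the edgeR 4.0.16 quasi-likelihood F test (R 4.3.3), two-sided, after filterByExpr and TMM scaling (factors 1.09 and 1.11 in iPSC clones 1 and 2, 1.11 in iNSLCs and 0.742 in fibroblasts). Benjamini-Hochberg adjustment ran over 15739 genes with a threshold of 0.05. The residual degrees of freedom came to 1, from the clones (common biological coefficient of variation 0.198). The fit was also run on simulated counts to check the code, and no result given here rests on that run. Single-library ratios were counted over genes with at least 1 CPM in the higher library, with libraries under 3 counts of a gene raised to 3. RPKM used the gene length in the file. All members and, per list, up to 4 called genes with the largest ratios are named. BTG2, SMAD6, SP1 to SP4, JUNB, HDAC2, KLF14, KLF17, PAX6, CTBP1, SIN3A and SIN3B were named after their values were seen. Some genes that the naming rules select are not reported here. The members and gene lists were chosen with earlier results of these data known. The alternatives tried were scaling by RLE or total counts, 2 other filters, DESeq2 1.42.0, the compared groups alone, other fold limits and each clone left out.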

Additional observations from a re-analysis of the deposited data

How the results depend on the processing

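The count of called members against fibroblasts was 8 under each of the 6 alternatives of scaling, filter, tool and libraries. Against iNSLCs it was 5, except for 6 with total counts, where KLF4 was called (log2 ratio -1.45, adjusted p = 0.0468), and 4 with DESeq2, where KLF2 was not (log2 ratio -1.33, adjusted p = 0.130). With total counts the uncalled ratios against fibroblasts turned to 0.44 for KLF2 (adjusted p = 0.256) and 0.19 for KLF11 (adjusted p = 0.550). Of 120 member values under these alternatives, 116 kept direction and call. Over all genes, total counts gave 7264 higher and 2754 lower calls against fibroblasts (4651 and 4440 with TMM), and testing without the low-count filter gave 1340 higher and 1570 lower calls against iNSLCs (2069 and 2230 with it). Between iNSLCs and fibroblasts, 3 members were past 4-fold, 2 with total counts and 7 at a 2-fold limit, and KLF3 changed sign with total counts. Between the clones, 0 members were past 2-fold and 2 past 1.5-fold. By CPM without length, the leading shares were 20.8% (KLF5) and 21.5% (KLF10) in the iPSC clones, 26.1% (KLF3) in iNSLCs and 28.1% (KLF4) in fibroblasts.

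Leaving out either clone left no residual degree of freedom, so values without a test are given. The log2 ratio of KLF4 then ranged over -4.50 to -3.52 against fibroblasts and -1.99 to -1.01 against iNSLCs, that of KLF5 over 2.24 to 2.77 and 1.76 to 2.29, that of KLF6 over -1.60 to -1.22 and 1.48 to 1.86, and that of KLF9 over -2.73 to -1.92 and 0.30 to 1.11. No member changed sign. The lower bounds of EGR3 and KLF1 with a single clone were added after seeing the data. No paired analysis was possible because the iNSLC and fibroblast groups had 1 library each and shared no clone number with the iPSCs. The fewest counts behind a member were 78, for KLF2 in iPSC clone 1.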

Other observations

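Of 17 tested cofactors and regulators of KLF proteins, 3 rose and 8 fell in iPSCs against fibroblasts (median log2 ratio -0.49), and 1 rose against iNSLCs, where the other 16 did not pass (median log2 ratio 0.16). Over all tested genes, 57.8% were called against fibroblasts and 27.3% against iNSLCs. CTBP2, the corepressor of KLF3, was at 274 and 242 CPM in the iPSC clones, 110 CPM in iNSLCs and 76.5 CPM in fibroblasts. It passed both tests (edgeR adjusted p = 0.00146 against fibroblasts and 0.00997 against iNSLCs), and it was the single member of the list that rose against iNSLCs. HDAC1 and HDAC2, deacetylases of the SIN3A complex, rose against fibroblasts with log2 ratios of 1.71 ± 0.14 and 1.68 (edgeR adjusted p = 0.00153 and 0.00109). The corepressor genes were not ordered alike, as CTBP1 and SIN3B fell against fibroblasts with log2 ratios of -0.61 and -1.27 (edgeR adjusted p = 0.0164 and 0.00207). SIN3A did not pass (edgeR adjusted p = 0.0589). FBXO32, a ubiquitin ligase subunit, fell most, with 3.76 and 7.999 CPM in the clones, 8.72 CPM in iNSLCs and 130 CPM in fibroblasts (edgeR adjusted p = 0.00194). MEF2A, of a family that activates KLF2 and KLF4 in mouse endothelium, fell with a log2 ratio of -1.96 ± 0.28 (edgeR adjusted p = 0.00622).

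Of 8 tested partners of KLF factors in naive pluripotency, 2 were higher and 2 lower in iPSCs than in iNSLCs, where 13.1% and 14.2% of all tested genes were. NANOG and PRDM14 rose (log2 ratios 7.77 ± 0.43 and 4.10 ± 0.18), whereas ESRRB and NR5A2 fell (-2.18 ± 0.51 and -1.86 ± 0.34, edgeR adjusted p = 0.0445 and 0.0275). ESRRB was at 9.75 and 4.06 CPM in the clones and 30.0 CPM in iNSLCs, and had 0 counts in fibroblasts. Of 7 glucocorticoid and circadian targets that share inducers with KLF9, 3 rose and 3 fell in iPSCs against fibroblasts, where 29.6% and 28.2% of all tested genes did. PER1 and PER2 fell (edgeR adjusted p = 0.0103 and 0.00663), and FKBP5 and TSC22D3 rose (0.00887 and 0.0143).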
